A study of Mus musculus with 33 samples.

Results

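The intercalated disc is the end-to-end contact between heart muscle cells. This report describes 10 of its genes, Cdh2, Ctnna1, Ctnna3, Vcl, Dsp, Dsg2, Pkp2, Jup, Gja1 and Tjp1, chosen by symbol from the 14862 gene rows of the deposited count table. All 10 were present in the table. The table held 33 single ventricular cells of mAG-hGem mice, which carry an Azami green fusion of geminin from the FUCCI cell cycle reporter, which accumulates in cycling cells. Cells were sorted by flow cytometry into 10 mAG-hGem positive and 11 negative cells at embryonic day 14.5 (E14.5), and 6 positive and 6 negative cells at postnatal day 5 (P5). All 4 groups share the transgene, and the labels name no other allele, treatment or strain. Per the labels' protocol, cells were accepted as cardiomyocytes when PCR of their cDNA found Tnnt2 and did not find Pdgfrb. The labels name no animal, so each group counts as 1 sample and no test between groups was made.

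Cardiomyocytes are held together at the disc by adherens junctions and desmosomes, and are coupled electrically by gap junctions. In the adherens junction the transmembrane cadherin N-cadherin binds the catenins, which link it with vinculin to the actin of the myofibrils. In the desmosome, desmogleins and desmocollins bind plakoglobin and plakophilin, and desmoplakin ties these to the desmin filaments. In the fetal heart these proteins are spread along the cell border, and they gather at the cell ends after birth. Variants in the desmosomal genes are a known cause of arrhythmogenic cardiomyopathy.

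Levels are counts per 1000000 counts (CPM), for a cell or for the summed counts of a group. Totals ran from 2.55 to 38.5 M counts per cell (1 M is 1000000), and the median cell had 12.8 M. Group medians of the totals were between 11.5 and 16.9 M. Intervals are exact 95% intervals that cover counting error only, and at these totals they were much narrower than the cells' own spread.

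Several cells went against the cardiomyocyte label. Tnnt2, the cardiac troponin T used for the PCR check, stood at 4323, 4295 and 4216 CPM in the first 3 groups and at 54.4 CPM in P5 negative cells. The summed level of 13 cardiomyocyte markers was 18384 to 47691 CPM in E14.5 positive cells and 21266 to 52463 CPM in E14.5 negative cells. It was 126 to 122576 CPM in P5 positive cells and 0.760 to 3297 CPM in P5 negative cells. In 8 cells another marker list summed higher than the cardiomyocyte list. These were N10 of the E14.5 negative group (46798 CPM over 9 markers of fibroblasts and mural cells, against 24576 CPM), the P5 positive cell L2P12 (7 endothelial markers at 15051 CPM against 126 CPM) and all 6 P5 negative cells. Of the latter, L2N4, L2N7 and L2N9 were led by endothelial markers, at 17209 to 28061 CPM. Red blood cell markers led in L1N3 and L2N10, where endothelial markers stood at 22077 and 9795 CPM, and fibroblast and mural markers led in L2N12. Outside these 8 cells the endothelial markers summed to at most 26.1 CPM and the red blood cell markers to at most 11.9 CPM. The fluorescence sort and the cell type therefore cannot be told apart among the P5 negative cells. Values that L2P12 or N10 moved are given below with and without that cell for the gene lists and for part of the members.

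The 120 bases before the start of 4 members are shown because their levels parted in the P5 negative cells, where Dsp and Ctnna3 were at or near 0 while Gja1 and Jup were present. Ctnna3 was also low in P5 positive cells, at 2.23 CPM or less. The windows come from a set of RefSeq windows on GRCm38.p6, and the set used held 6 of the 10 members. They are printed 5′ to 3′ along the gene's strand: Dsp at chr13:38151174-38151293 (plus strand), Ctnna3 at chr10:63429978-63430097 (plus), Gja1 at chr10:56377180-56377299 (plus) and Jup at chr11:100397791-100397910 (minus). Capitals mark matches to 6 motifs searched on both strands, the SP1/KLF GC box GGGCGG, the TEAD motif CATTCC, the GATA motif AGATAA, the T-box motif AGGTGT, the AP-1 motif TGANTCA and the NKX2-5 motif CACTTG.
Dsp: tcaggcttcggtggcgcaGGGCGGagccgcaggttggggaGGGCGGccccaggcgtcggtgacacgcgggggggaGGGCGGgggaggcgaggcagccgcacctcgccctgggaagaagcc
Ctnna3: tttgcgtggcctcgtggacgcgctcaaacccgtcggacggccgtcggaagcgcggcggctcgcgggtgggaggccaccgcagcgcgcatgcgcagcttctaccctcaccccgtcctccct
Gja1: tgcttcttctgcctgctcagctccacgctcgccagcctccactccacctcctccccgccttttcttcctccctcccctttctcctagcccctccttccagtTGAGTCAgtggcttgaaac
Jup: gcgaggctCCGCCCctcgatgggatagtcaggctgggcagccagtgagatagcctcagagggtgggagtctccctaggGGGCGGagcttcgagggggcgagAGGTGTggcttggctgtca

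Over the full 250 bases before the start, the Dsp window had a GC content of 72.4% with 22 CpG, and 4 GC boxes whose first bases lay 137, 102, 80 and 45 bases upstream, and a T-box match 219 bases upstream. The Ctnna3 window, the first of the 3 that the set holds for this gene, had a GC content of 67.6% with 36 CpG and 1 GC box, 139 bases upstream. The Jup window (62.0% GC, 13 CpG) had GC boxes 112 and 42 bases upstream and a T-box match 19 bases upstream. The Gja1 window (50.0% GC, 6 CpG) had no GC box, an AP-1 match 19 bases upstream and a GATA match 135 bases upstream. Of all 32851 windows of this length, 32.7% held a GC box, 12.6% the TEAD motif, 9.99% the GATA motif, 11.8% the T-box motif, 6.75% the AP-1 motif and 11.6% the NKX2-5 motif. The median window had a GC content of 52.4% and 6 CpG. These matches describe the letters of the windows and are not evidence of binding.

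At E14.5 the disc genes were present in nearly every cell, but not evenly. A positive cell held a median of 9 of the 10 members at 10 CPM or more (8 to 10), and a negative cell also a median of 9 (8 to 10). Cdh2, Ctnna1, Vcl, Dsp and Pkp2 reached 10 CPM in 21 of 21 E14.5 cells. Tjp1 did so in 19, Gja1 in 18, Dsg2 and Jup in 16 each, and Ctnna3 in 9. At P5 the median was 7.5 members in positive cells (5 to 9) and 5 in negative cells (3 to 5). The number of genes with a count also reached lower values at P5, but the ranges of the groups overlapped. It was 6675 to 10769 per E14.5 positive cell and 5532 to 8891 per E14.5 negative cell. At P5 it was 3991 to 8786 per positive cell and 2994 to 8205 per negative cell. The low ends came from L1P5 (3991), L2N4 (2994) and L1N3 (3747). The P5 negative cells L2N7, L2N9, L2N10 and L2N12 had 7560 to 8205, within the E14.5 negative range. The share of all genes at 10 CPM in a cell was not counted. Divided by exon length, the group level in E14.5 positive cells was highest for Gja1 (222 CPM per kb), then Pkp2 (191), Ctnna1 (179), Cdh2 (83.7), Vcl (51.0), Tjp1 (22.4), Dsp (16.4), Jup (5.40), Dsg2 (5.22) and Ctnna3 (4.75). E14.5 negative cells gave the same order, from 259 CPM per kb for Gja1 to 7.31 for Ctnna3. In P5 positive cells Ctnna1 led at 229 CPM per kb, ahead of Gja1 (87.5) and Pkp2 (64.7), and Ctnna3 was last at 0.0923. Within every group, the cell ranges of all 9 pairs of neighbours in this order overlapped. Lengths are merged GENCODE M21 exons, and how evenly the amplified reads covered them was not tested.

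**Figure D1:**
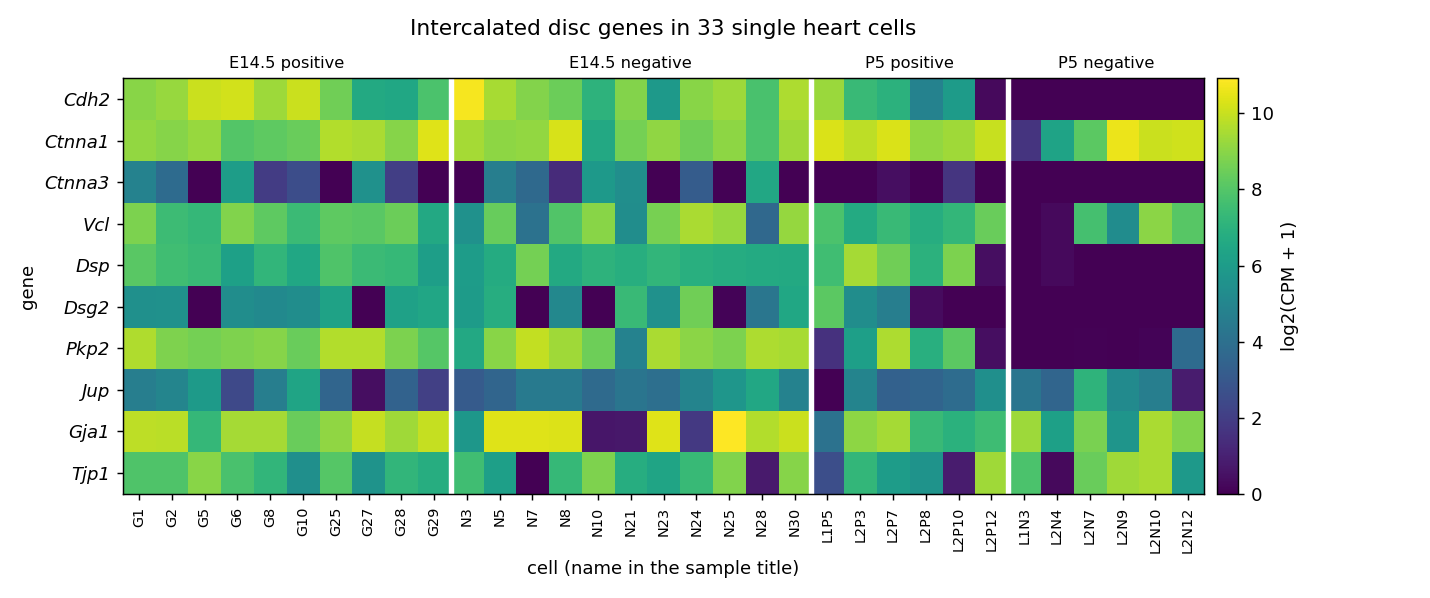
Level of the 10 genes (rows) in each of the 33 cells (columns, named as in the sample titles), as log2(CPM + 1), with white lines between the 4 groups. Cdh2, Dsp, Dsg2, Pkp2 and Ctnna3 are dark in L2P12 and in the P5 negative cells, where the highest value is 13.2 CPM, for Pkp2 in L2N12.

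Cdh2 encodes N-cadherin, the transmembrane adhesion protein of the disc. Its lowest, median and highest cell stood at 89.9, 556 and 1157 CPM in E14.5 positive cells and at 57.3, 475 and 1768 CPM in E14.5 negative cells. In P5 positive cells these values were 0.222, 96.1 and 613 CPM, and all 6 P5 negative cells had 0 counts. The ranges of the E14.5 groups overlapped, and the lowest P5 positive cell was L2P12. The group level was 414 CPM (411 to 418) in E14.5 positive cells, 424 (422 to 427) in E14.5 negative cells and 78.8 (77.0 to 80.6) in P5 positive cells. For the 0 counts in P5 negative cells the interval ends at 0.0445 CPM. The floor used for ratios was 0.0362 CPM, which is 3 counts over the group.

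Ctnna1 encodes alpha-E-catenin, the actin-linking catenin made in most tissues. It stood at 252, 527 and 1341 CPM in the lowest, median and highest E14.5 positive cell, and at 94.8, 540 and 1227 CPM in E14.5 negative cells. It stood at 562, 961 and 1262 CPM in P5 positive cells and at 2.12, 677 and 1537 CPM in P5 negative cells. Ctnna1 was thus present in all 33 cells, and the groups overlapped. Ctnna3 encodes alpha-T-catenin, the form known from heart and testis, and lies on chromosome 10 (GRCm38 63430098 to 65003667, plus strand). Its median E14.5 positive cell had 4.04 CPM, with a highest of 67.3, and its median E14.5 negative cell had 8.02 CPM, with a highest of 93.5. A total of 7 of the 21 E14.5 cells were below 1 CPM, and 9 were at 10 CPM or more. Of the 6 P5 positive cells, L2P10 had 2.23 CPM, L2P7 had 0.319 CPM and the rest had 0 counts. P5 negative cells had 0 counts throughout. Per exon length, Ctnna3 made up 2.59% of the summed level of the pair in E14.5 positive cells, 5.42% in E14.5 negative cells, 0.0403% in P5 positive cells and 0% in P5 negative cells.

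Vcl encodes vinculin, which strengthens the link from catenins to actin. It stood at 94.5, 286 and 462 CPM in the lowest, median and highest E14.5 positive cell, and at 12, 329 and 731 CPM in E14.5 negative cells. The values were 102, 157 and 340 CPM in P5 positive cells and 0, 121 and 514 CPM in P5 negative cells. The E14.5 negative cells spread most widely, with N3, N7, N21 and N28 below every positive cell of that age. Vcl lies on chromosome 14 (GRCm38 20929398 to 21033676, plus strand) and shares 2090 of its 5267 exon bases (39.7%) with Ap3m1 on the other strand. The labels state no stranded kit, so reads of the pair may not be told apart. Ap3m1 itself had 59.6 and 48.2 CPM in the positive cells of E14.5 and P5, and 116 and 93.7 CPM in the negative cells.

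Dsp encodes desmoplakin, which anchors intermediate filaments. Over the E14.5 cells it had the smallest ratio of highest to lowest cell among the 10 members, at 68.4, 164 and 279 CPM in the lowest, median and highest positive cell and at 65.1, 106 and 393 CPM in negative cells. P5 positive cells had 0.311, 280 and 689 CPM. L2P12 was again the lowest, and the other 5 cells held 129 CPM or more. P5 negative cells together had 1 count, in L2N4. Of its exon bases, 5.20% are shared with the gene model Gm10129 on the other strand.

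Dsg2 encodes desmoglein 2, the desmosomal cadherin of the heart. Its lowest, median and highest cell stood at 0, 41.8 and 86.0 CPM in E14.5 positive cells and at 0, 45.3 and 376 CPM in E14.5 negative cells. The cells G5, G27, N7, N10 and N25 were below 1 CPM and the other 16 E14.5 cells were at 18.8 CPM or more, with no cell between. P5 positive cells had 0, 12.5 and 283 CPM, and P5 negative cells had 0 counts. A single cell, N24, held 53.7% of the Dsg2 counts of the E14.5 negative group. Dsg2 shares 3.99% of its exon bases with Gm16090 on the other strand.

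Pkp2 encodes plakophilin 2, the armadillo protein of cardiac desmosomes, on chromosome 16 (GRCm38 16213318 to 16272712, plus strand). It stood at 263, 443 and 818 CPM in the lowest, median and highest E14.5 positive cell and at 28, 526 and 954 CPM in E14.5 negative cells. In P5 positive cells it stood at 0.311, 94.1 and 767 CPM, and L2P7 held 55.2% of the group's counts. In P5 negative cells only L2N12, the cell led by fibroblast and mural markers with epicardial markers at 4633 CPM, had more than 1 CPM, at 13.2. That cell gave 99.1% of the group's 224 counts.

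Jup encodes plakoglobin, which is shared by desmosomes and adherens junctions. It was the desmosomal member with counts in all 6 P5 negative cells. Its lowest, median and highest cell stood at 0.312, 17.6 and 83.1 CPM in E14.5 positive cells, at 7.85, 21.1 and 91.7 CPM in E14.5 negative cells, at 0, 11.8 and 43.0 CPM in P5 positive cells and at 0.771, 21.5 and 135 CPM in P5 negative cells. The 4 groups overlapped. L2N7 held 80.0% of the Jup counts of P5 negative cells, and N28 held 45.1% of those of E14.5 negative cells.

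Gja1 encodes connexin 43, the main gap junction channel of the working ventricle (chromosome 10, GRCm38 56377330 to 56402513, plus strand). The lowest, median and highest E14.5 positive cell stood at 152, 696 and 997 CPM. The E14.5 negative cells split widely. N10, N21 and N24 had 0.588, 0.644 and 2.49 CPM and N3 had 54.3 CPM, while the other 7 ran from 816 to 1936 CPM. N10, N21 and N24 had totals of 18.7, 12.4 and 23.3 M counts, against a group median of 16.9 M. N21 and N24 were led by cardiomyocyte markers, at 29738 and 21266 CPM. In P5 positive cells Gja1 stood at 16.5, 176 and 707 CPM and in P5 negative cells at 51.3, 442 and 741 CPM, and every P5 cell held at least 10 CPM.

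Tjp1 encodes ZO-1, the scaffold that borders gap junction plaques. It stood at 41.8, 182 and 503 CPM in the lowest, median and highest E14.5 positive cell and at 0, 160 and 494 CPM in E14.5 negative cells, where N7 and N28 were below 1 CPM. In P5 positive cells it stood at 0.796, 55.9 and 656 CPM. The highest of these was L2P12, which alone held 77.2% of the group's Tjp1 counts. P5 negative cells stood at 0.194, 287 and 737 CPM.

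**Figure D2:**
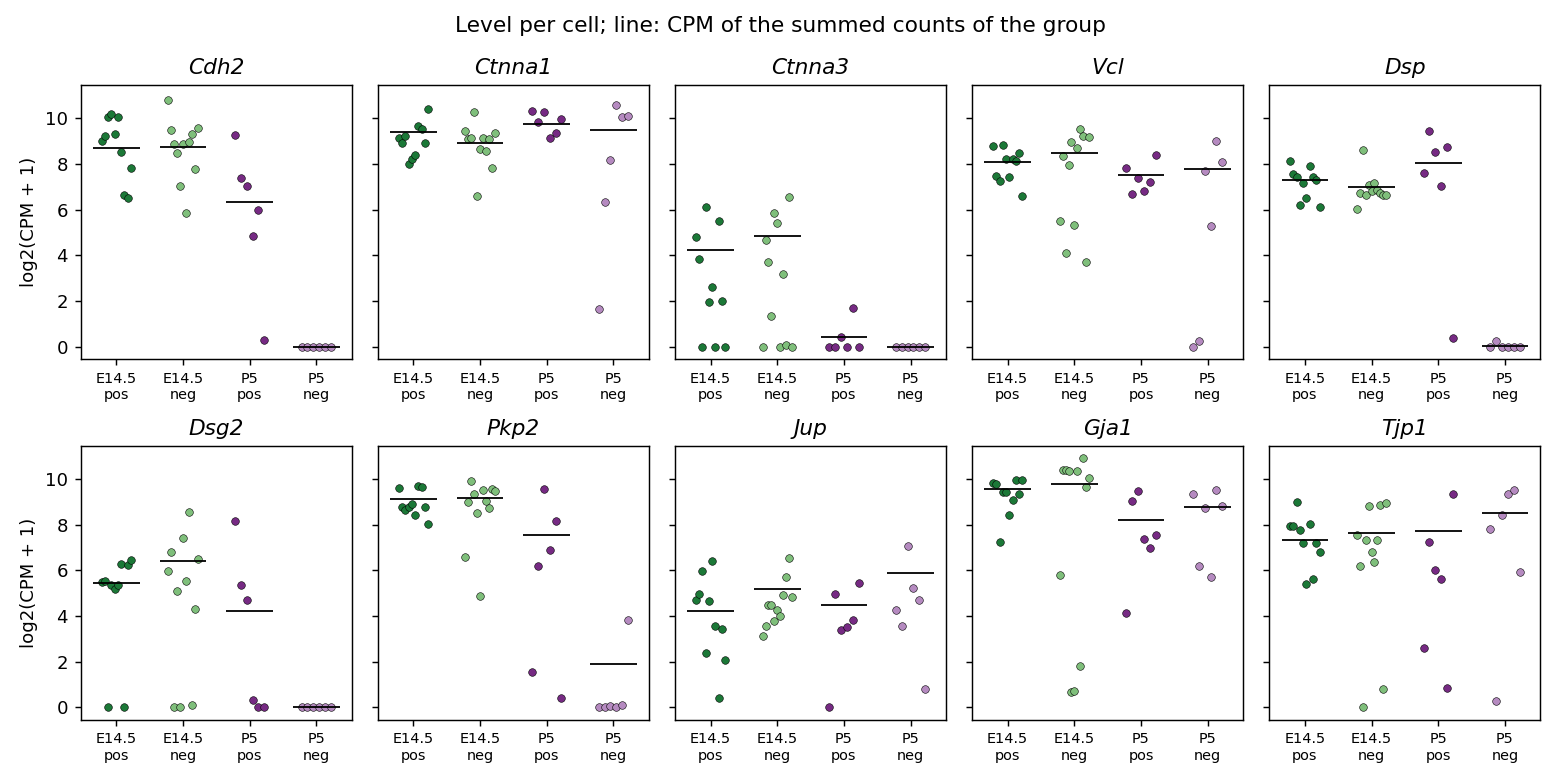
Level of each gene as log2(CPM + 1) on the vertical axis, 1 point a cell, by group (pos and neg: mAG-hGem positive and negative), with a line at the CPM of the group's summed counts. Gja1 in E14.5 negative cells shows 3 cells below 3 CPM, and Cdh2 lies at 0 in all 6 P5 negative cells.

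The comparison of P5 with E14.5 positive cells asks how these genes differ with age among cycling cells. Of the 10 members, 5 were at least 2-fold lower at P5, 5 were within 2-fold and 0 were at least 2-fold higher. Cdh2 was lower by a log2 ratio of -2.40 (-2.43 to -2.36), Ctnna3 by -5.69 (-6.24 to -5.18), Pkp2 by -1.56 (-1.59 to -1.54), Gja1 by -1.34 (-1.36 to -1.33) and Dsg2 by -1.27 (-1.35 to -1.19). Ctnna1 (0.36), Vcl (-0.57), Jup (0.31), Dsp (0.75) and Tjp1 (0.38) stayed within 2-fold. Of all 7809 genes that reached 10 CPM in the higher group, 32.5% were at least 2-fold lower and 32.2% at least 2-fold higher. The median log2 ratio was -0.92 over the members and -0.07 over all genes. The cells of the groups did not separate for any member, against 1.50% of all genes. On the scale of single cells, the highest P5 positive cell of Cdh2, 613 CPM in L1P5, lay above the E14.5 positive median. Single cells moved some of these ratios. Dsg2 stood at -2.06 without L1P5 and at -0.78, within 2-fold, without L2P8. Pkp2 stood at -2.51 without L2P7, and Ctnna3 at -8.47 without L2P10 and at -4.72 without G27. Jup turned to -0.09 without G27, and Dsp passed 2-fold, at 1.03, without L2P8.

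Leaving out L2P12, so that all cells were led by cardiomyocyte markers, gave 6 members at least 2-fold lower, 1 higher and 3 within 2-fold. Among all genes 40.3% were then lower and 26.8% higher, with a median of -0.51 against -1.11 for the members. Cdh2 stood at -1.99, Ctnna3 at -5.28, Pkp2 at -1.16 and Gja1 at -1.18. Dsp passed 2-fold as higher, at 1.16 (1.13 to 1.18), with 351 CPM in the 5 P5 cells and 158 CPM at E14.5. Tjp1 turned from 0.38 to -1.35 (-1.39 to -1.30), as its level in P5 positive cells went from 208 to 62.7 CPM without that cell. Vcl moved from -0.57 to -1.05 and Dsg2 from -1.27 to -0.87, and Jup turned from 0.31 to -0.25. With all cells but L2P3, in contrast, Dsp stood at 0.20, within 2-fold. By the median cell, with all cells, Jup stood at -0.57 and Tjp1 at -1.70.

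The comparison of positive with negative cells at E14.5 asks whether cycling cells differ in these genes. A total of 9 of the 10 members were within 2-fold, Jup was lower in positive cells by a log2 ratio of -1.04 (-1.10 to -0.97), and 0 were at least 2-fold higher. Among all 7311 genes that reached 10 CPM, 22.3% were lower and 16.2% higher. Cdh2 (-0.03) and Pkp2 (-0.03) were nearest to equal. Gja1 stood at -0.22, Tjp1 at -0.31, Vcl at -0.41, Ctnna3 at -0.62 and Dsg2 at -0.95, and Ctnna1 (0.49) and Dsp (0.34) were on the positive side. The median was -0.27 over the members and -0.14 over all genes, and the cells did not separate for any member, against 0.342% of all genes. Without N10, Jup stood at -1.13 and Dsg2 at -1.10, so that 2 members were lower, beside 21.9% of all genes lower and 16.9% higher. These calls sit at the 2-fold limit. Jup came within 2-fold in 7 of the 21 recomputations that left out 1 cell (G6, G25, G27, G28, G29, N25 or N28), with -0.64 without G27 and -0.45 without N28, while Dsg2 passed 2-fold in 9, from -1.01 to -1.18. Without N24, Dsg2 stood at -0.02. Ctnna3 stood at -1.58 without G27 and at 0.41 without N28. The sign of Cdh2 and Pkp2 turned with 8 and 7 of the cells left out, and Gja1 stood at 0.02 without N25.

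The Jup difference did not hold across the cells' title numbers, which run from 1 to 10 and from 21 to 30. The labels do not say what the numbers mean. Among numbers 1 to 10 (6 positive and 5 negative cells) the Jup log2 ratio was 1.35, and among 21 to 30 (4 and 6 cells) it was -3.14. Cdh2 likewise stood at 0.69 and at -1.20, and Ctnna1 at -0.44 and at 0.89. Dsp (0.03 and 0.48) and Gja1 (-0.31 and -0.15) had the same sign in both.

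**Figure D3:**
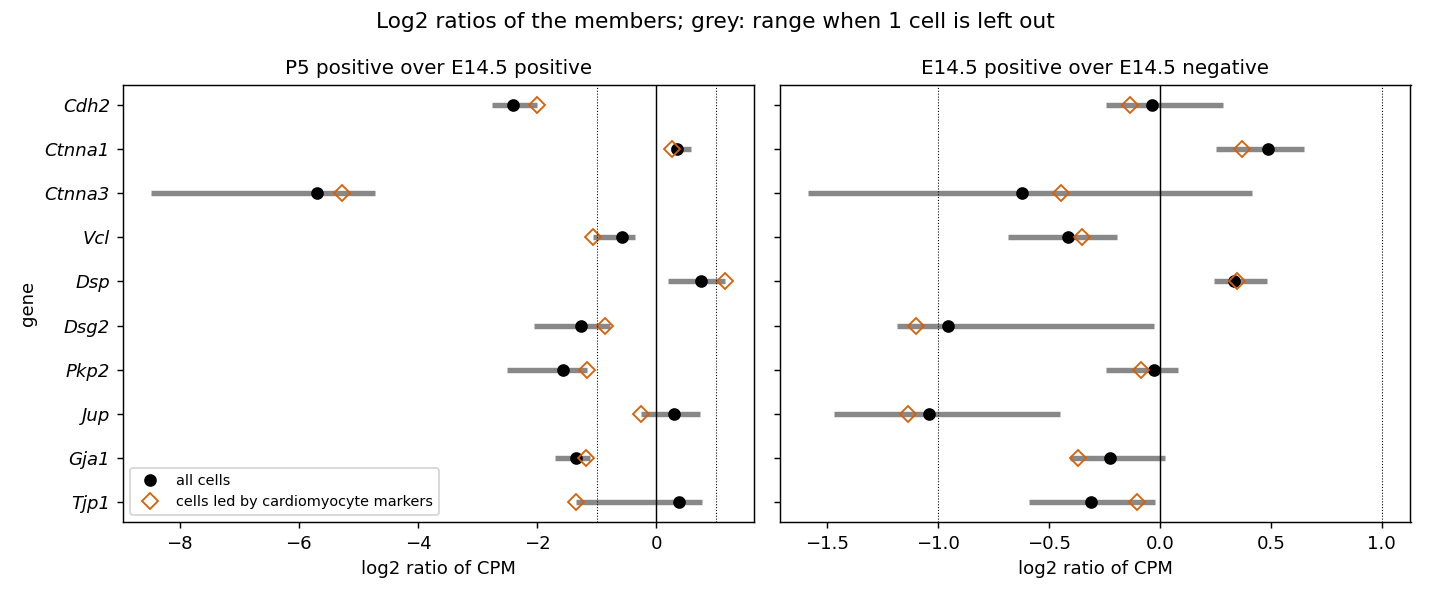
Log2 ratio of CPM (horizontal axis) of each gene, P5 positive over E14.5 positive (left) and E14.5 positive over E14.5 negative (right), for all cells (black) and for cells led by cardiomyocyte markers (open diamonds). Grey bars give the range when 1 cell is left out in turn, and dotted lines mark 2-fold. Tjp1 on the left moves from 0.38 to -1.35 without L2P12.

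The comparison of positive with negative cells at P5 compared mostly cells led by cardiomyocyte markers with cells led by other markers. A set of 4 members was at least 2-fold higher in positive cells. Cdh2 was at least 2178-fold higher and Dsg2 at least 495-fold higher, both against a floor of 3 counts over the P5 negative group. Dsp had a log2 ratio of 14.43 (11.95 to 19.73) against a single count, and Pkp2 had 6.13 (5.94 to 6.32). Jup was lower in positive cells, at -1.43 (-1.50 to -1.35). Tjp1 (-0.82), Gja1 (-0.56), Vcl (-0.28) and Ctnna1 (0.25) were within 2-fold, and Ctnna3 reached 10 CPM in neither group. Among all 8304 genes that reached 10 CPM, 30.4% were higher and 38.9% lower. The cells separated for Cdh2 and Dsp, that is for 2 members, against 2.12% of all genes. Both separations rest on few counts in L2P12. That cell had 5 counts of Cdh2 against 0 in P5 negative cells, and 7 counts of Dsp against 1 in L2N4. Without L2P12, Jup stood at -1.99 and Tjp1 at -2.55, and without L2N7 Jup turned to 0.29. Pkp2 stood at 12.61 without L2N12, at 5.18 without L2P7 and at 5.53 without L2N7, and Tjp1 at -1.10 without L2N12. Dsp stood at 12.75, now a bound, without L2N4 and at 13.82 without L2N7. The bound on Dsg2 was 8.16 without L1P5 and 8.35 without L2N7, and that on Cdh2 10.48 without L2N7. Ctnna1 (-0.14 without L2N7) and Vcl (0.20 without L2N10) changed sign.

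In negative cells, P5 was compared with E14.5 in the same way. A total of 6 members were at least 2-fold lower at P5 and 0 were higher, with 34.2% of all 8410 genes lower and 36.8% higher. Against the floor of 3 counts, Cdh2 was at least 11738-fold lower, Dsg2 at least 2309-fold lower and Ctnna3 at least 760-fold lower. Dsp had a log2 ratio of -13.34 (-18.64 to -10.86), Pkp2 of -7.72 (-7.92 to -7.53) and Gja1 of -1.01 (-1.03 to -0.99). Ctnna1 (0.59), Jup (0.69), Tjp1 (0.89) and Vcl (-0.70) were within 2-fold. The cells separated for Cdh2, Dsp and Pkp2, that is for 3 members, against 3.20% of all genes. Pkp2 stood at -14.20 without L2N12, and Gja1 came within 2-fold in 9 of the 17 recomputations that left out 1 cell (L2N4, L2N7, L2N9, N5, N7, N8, N23, N25 or N30), reaching -0.76 without N25. Jup turned to -1.03 without L2N7 and passed 2-fold as higher without N28 (1.28) or L2N12 (1.02). Tjp1 did so without L2N12 (1.17), N25 (1.17), N30 (1.11) or N10 (1.10), and Vcl passed as lower without L2N10 (-1.18). Without L2N4 Dsp had a bound of -11.66. Without L2N7 the bounds were -12.91 for Cdh2, -10.57 for Dsg2 and -8.97 for Ctnna3, and the ratios were -12.73 for Dsp and -7.12 for Pkp2. L2N7 had 0 counts of Cdh2, Dsg2 and Ctnna3, so leaving it out moved only the floor, through the group total. The bound on Ctnna3 was -8.54 without N28 and that on Dsg2 -10.24 without N24.

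The members thus fell into 2 sets of 5 by their summed levels in the P5 negative cells and L2P12. This division was made after the values were seen and so was not tested. Cdh2, Dsp, Dsg2, Pkp2 and Ctnna3 summed to between 0 and 13.2 CPM in P5 negative cells and to 0.844 CPM in L2P12. In E14.5 positive cells they summed to 642 to 1778 CPM and in E14.5 negative cells to 684 to 1990 CPM. In the other P5 positive cells, L1P5, L2P3, L2P7, L2P8 and L2P10, they summed to 274 to 1291 CPM. Ctnna3 alone was below 1 CPM in 4 of these 5 cells and in 7 of the 21 E14.5 cells. Low Ctnna3 was thus not particular to the P5 negative cells and L2P12. Gja1, Jup, Ctnna1, Tjp1 and Vcl summed to 162 to 3081 CPM in P5 negative cells and to 980 to 2531 CPM in E14.5 positive cells. In P5 positive cells they summed to 897 to 2240 CPM. N10, where fibroblast and mural markers led and cardiomyocyte markers stood at 24576 CPM, kept Cdh2 (132 CPM), Dsp (134), Pkp2 (360) and Ctnna3 (57.4) but had Dsg2 at 0 and Gja1 at 0.588 CPM.

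**Figure D4:**
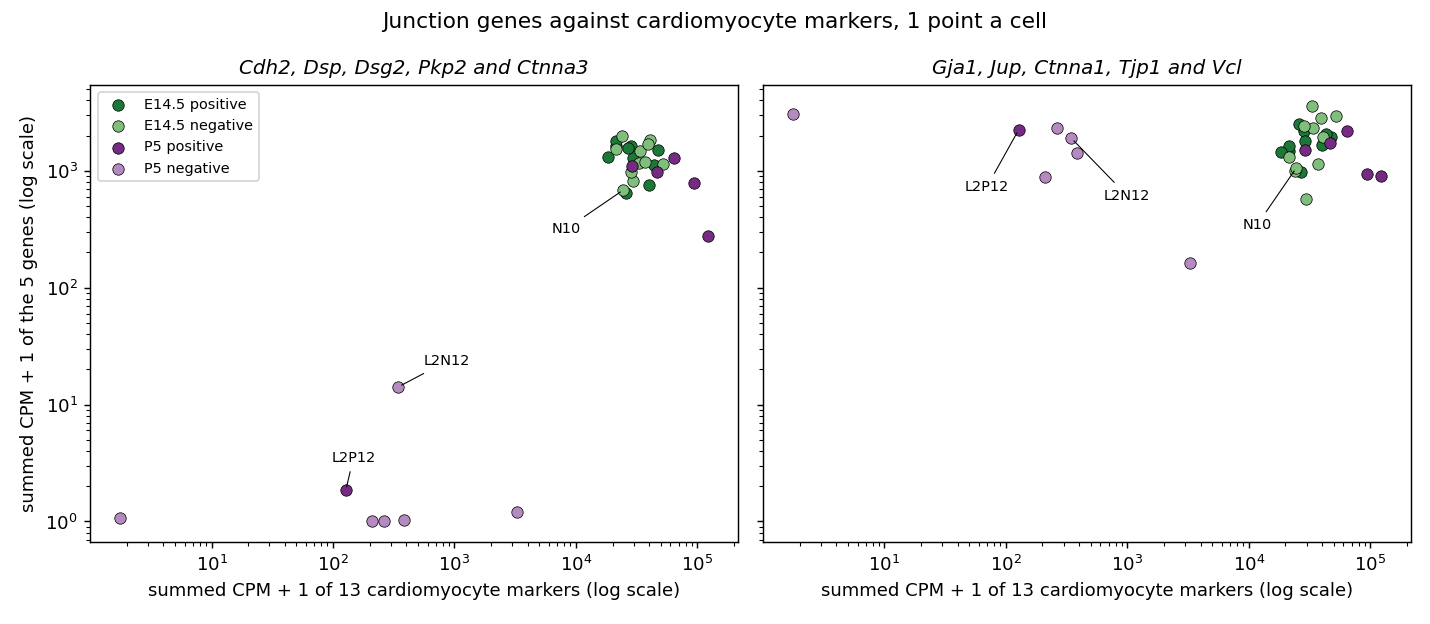
Summed CPM + 1 of 5 members (vertical, log scale) against the summed CPM + 1 of 13 cardiomyocyte markers (horizontal, log scale), 1 point a cell. The first set (left) is at 13.2 CPM or below in the P5 negative cells and L2P12, and the second set (right) reaches 3081 CPM there.

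The members were also set against each other across single cells. Over the 45 pairs of members and the 21 E14.5 cells, Pearson's r of log2(CPM + 1) had a median of -0.04 and ran from -0.61 for Ctnna1 with Ctnna3 to 0.74 for Vcl with Tjp1. Pkp2 with Gja1 had 0.62, and only these last 2 pairs reached 0.5. Over all 33 cells the median was 0.12, and the highest were Cdh2 with Dsp (0.87), Dsp with Pkp2 (0.85) and Cdh2 with Pkp2 (0.81). The cells share amplification, depth and, in the wider set, the division by cell type, so these values are descriptions.

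The genes most like each member over the 21 E14.5 cells were sought among 5461 genes. Each partner was taken for its high r out of these, so the values are high by selection. How high r would reach for unrelated genes was not tested. Cdh2 was nearest to Srsf5 (r = 0.81), a splicing factor, Pkp2 to Sulf2 (0.87) and to Rbm20 (0.83), the splicing factor of titin, and Gja1 to Bola3 (0.88). Tjp1 was nearest to Dnajb9 (0.88), Vcl to Fads3 (0.86), Ctnna1 to Pak1ip1 (0.80), Dsg2 to Lgmn (0.78), Dsp to Mir22hg (0.71), Ctnna3 to Rpain (0.71) and Jup to D3Ertd751e (0.70). The mean of the 10 members over all 33 cells was nearest to Nexn (0.89), an actin-binding protein of the sarcomere, among 9400 genes. Dld, Sorbs2, Smpx, Sh3bgr, Gyg, Ttn, Rbm24, Ldb3 and Apobec2 followed, at 0.87 to 0.88. Ttn, itself one of the cardiomyocyte markers, and Ldb3 are sarcomere genes.

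Of 38 other genes of the disc and of cardiac junctions, 37 were in the table. In P5 over E14.5 positive cells, 34 reached 10 CPM, 9 of them at least 2-fold higher and 13 lower, with a median of -0.19. Of all genes, 32.2% were higher and 32.5% lower. Without L2P12 the list had 9 higher and 13 lower of 32, with a median of -0.66, beside 26.8% and 40.3% of all genes. The list's median turned to 0.08 without L2P10 and to 0.29 with DESeq2 size factors. The highest ratio was that of Xirp2, an actin-binding disc protein, at 10.79 (9.56 to 12.41, 5144 counts against 5), followed by Pvrl2 (nectin 2) at 3.14 and Plec (plectin) at 2.69. The lowest were Gjc1 (connexin 45) at -4.01, Cxadr, the coxsackievirus and adenovirus receptor, at -2.76, and Enah at -2.37. Connexin 45 thus stood at 54.1 CPM in E14.5 positive cells and 3.35 CPM in P5 positive cells, while connexin 43 stood at 749 and 295 CPM.

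Between E14.5 positive and negative cells, 23 of the 29 genes of this list that reached 10 CPM were within 2-fold, 4 were higher and 2 lower, with a median of -0.09. Of all genes, 16.2% were higher and 22.3% lower. Without N10 the list had 4 higher and 3 lower of 30, with a median of -0.08, beside 16.9% and 21.9% of all genes. The list's median turned to 0.14 without N23. Enah (5.17) and Tln1 (3.36) were among the highest, and Cxadr (-1.02) and Dsc2 (-0.87) among the lowest. Between P5 positive and negative cells, 17 of 34 were higher and 11 lower, with a median of 1.01. Of all genes, 30.4% were higher and 38.9% lower. Without L2P12 the list had 18 higher and 12 lower of 34, with a median of 1.40, and the share of all genes was not counted. The list's median was 0.18 without L2P10 and 1.54 without L2N10. Popdc2 was highest at 13.26, Bves at least 3498-fold higher and Nrap at least 2776-fold higher. Synm (at least 413-fold lower) and Gjc1 (-4.30) were among the lowest. Between P5 and E14.5 negative cells, 9 of 32 were higher and 16 lower, with a median of -0.87. Of all genes, 36.8% were higher and 34.2% lower. Without N10 the list had 9 higher and 17 lower of 33, with a median of -1.60, and the share of all genes was not counted. By the median cell the list's median was -3.34. Synm (at least 877-fold higher), Pvrl2 (4.90) and Plec (4.81) were highest, and Bves (at least 6476-fold lower), Sorbs2 (-12.04) and Popdc2 (-11.28) lowest. Dsc2, the desmocollin partner of Dsg2, had 0 counts in P5 negative cells, as Dsg2 did, against 35.1 CPM in E14.5 negative cells.

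Of 10 endothelial junction genes listed, 8 were in the table. They summed to 739 to 6616 CPM in P5 negative cells and to 2650 CPM in L2P12, against 199 CPM or less in the other 5 P5 positive cells. They summed to 0.208 to 1709 CPM in E14.5 positive cells and to 0.167 to 759 CPM in E14.5 negative cells. The E14.5 cells G10 (1709 CPM), G29 (788), N7 (759) and G2 (754) thus lay above the lowest P5 negative cell, L2N12 (739). All 8 reached 10 CPM in L2P12. Cdh5, which encodes VE-cadherin, stood at 758 CPM in P5 negative cells and had 0 counts in E14.5 cells. Cldn5, the endothelial claudin, stood at 124 CPM, 1 count and 0 counts in P5 negative, E14.5 positive and E14.5 negative cells. The list's median ratio in P5 over E14.5 positive cells was 8.72, with 6 of 8 higher and 1 lower. Without L2P12 it was -1.99, with 1 higher and 2 lower of the 3 that then reached 10 CPM. In P5 over E14.5 negative cells it was 9.26 (7 of 8 higher), in P5 positive over negative cells -2.17 (7 of 8 lower), and in E14.5 positive over negative cells -0.50 (1 of 3 lower). The shares of all genes in these comparisons are those given above. Without N10 the list's median was 9.12 in P5 over E14.5 negative cells and -0.51 between the E14.5 groups. The median in P5 positive over negative cells was -10.12 without L2P12 and -1.30 without L2N7. It ran from 8.31 (without L2N7) to 12.80 (without N21) in P5 over E14.5 negative cells, and from -1.62 (without G29) to 0.11 (without N28) between the E14.5 groups. E14.5 cells were not empty of the list, as F11r stood at 218 and 139 CPM and Jam3 at 82.6 and 117 CPM in positive and negative cells.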

How the data were processed

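The series holds 33 single ventricular cells of mAG-hGem mice, and the labels put each cell in 1 of 4 groups. The deposited table holds raw counts per gene, whole numbers, which the authors made with CASAVA 1.8.2, STAR 2.4.0j and HTSeq 0.6.1p1 on mm10, per the submitters' processing notes. Per the labels' design text, the mRNA of each cell was amplified as antisense RNA, so reads are not independent molecules, and intervals and floors cover counting error only. A TruSeq kit was used, per the labels. Columns were matched to samples by title, and 0 columns of other samples were present.

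CPM of a group is its cells' pooled count divided by their pooled total (Python 3.11.15, scipy 1.17.1). CPM have exact Poisson intervals and log2 ratios exact Clopper-Pearson intervals at 95%. A gene counted as higher or lower at 10 CPM in the higher group and a 2-fold ratio. A group at 0 was set to a floor of 3 counts over the group. Per-cell plots and correlations used a pseudocount of 1 CPM. With 1 sample per group, no test and no p-value was made. Most alike cells, G1 and G2, had r = 0.867, so no library was present as 2 cells. Values of 1 to 3 reads made up 12.3% of the nonzero values. The ratio was tested on simulated counts with no variation between cells of a group, so that test covers counting error only.

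The members, the lists and the markers were chosen with earlier results of these data known. Genes were named as members, as the 3 highest and 3 lowest of a list in each comparison, or as the 2 genes most like a member (some genes that this rule names are not reported here), of which mostly the first is printed; endothelial junction and other genes were named after their values were seen. Alternatives were equal weights for cells, the median cell, thinning each cell to 5000000 counts (1 shallower cell left out), edgeR 4.0.16 TMM factors, DESeq2 1.42.0 size factors, totals without the 20 most abundant genes, no minimum level, leaving out cells led by other markers, title numbers and each cell left out in turn. Gene models are GENCODE M21 (GRCm38), and promoter windows RefSeq (GRCm38.p6).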

Additional observations from a re-analysis of the deposited data

Results flagged for a closer look

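Cells that stood apart were sought in the groups other than E14.5 negative. In 10 of 27 combinations of a member and a group, 1 cell stood farther from the others than Dixon's limit at 95% allows. Chance gives about 1.35 of 27 if values follow a normal distribution, which was not tested here and which cells of mixed type need not follow. Each flagged cell was the highest of its group. Among P5 positive cells, L1P5 was highest for Cdh2 at 613 CPM (next 166) and for Dsg2 at 283 CPM (next 40.1). It was also the shallowest cell, at 2.55 M counts, and had 0 counts of Jup and Ctnna3. L2P7 was highest for Pkp2 at 767 CPM (next 284), L2P10 for Ctnna3 at 2.23 CPM, and L2P12 for Tjp1 at 656 CPM (next 149).

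Among P5 negative cells, L2N7 was highest for Jup at 135 CPM (next 36.6), L2N12 for Pkp2 at 13.2 CPM and L2N4 for Dsp at 0.194 CPM, which is 1 count. As the other P5 negative cells had 0 counts of Dsp, any count in a single cell would have been flagged. Among E14.5 positive cells, G29 was highest for Ctnna1 at 1341 CPM (next 809) and G5 for Tjp1 at 503 CPM (next 261). The 11 E14.5 negative cells were not screened in this way. There, N7 stood at 393 CPM for Dsp (next 143), N3 at 1768 CPM for Cdh2 (next 773) and N24 at 376 CPM for Dsg2 (next 169).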

How the results depend on the processing

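Counts of members at least 2-fold higher or lower kept within 1.5 times their main value in 164 recomputations and moved farther in 32. For P5 over E14.5 positive cells, the count higher was 1 in place of 0 with thinned cells, with DESeq2 size factors and without cells led by other markers, and the count lower was 3 in place of 5 with DESeq2 size factors. With each cell left out in turn these counts ran from 0 to 1 (1 without L2P8 or L2P12) and from 4 to 6. For E14.5 positive over negative cells, the count lower was 0 in place of 1 with equal weights, the median cell, thinned cells, TMM factors and title numbers 1 to 10, 2 with DESeq2 size factors and without cells led by other markers, and 3 in title numbers 21 to 30, with a range of 0 to 2 over cells left out (0 without G6). The count higher was 1 in title numbers 1 to 10. For P5 positive over negative cells, the count lower was 2 with equal weights and the median cell, 0 with thinned cells, and 0 to 2 over cells left out (0 without L2N7, 2 without L2P12 or L2N12). For P5 over E14.5 negative cells, the count higher was 1 with DESeq2 size factors and 0 to 2 over cells left out (2 without L2N12). The causes were not tested.

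Among ratios past 2-fold, signs that turned were Dsg2 in P5 over E14.5 positive cells, at 0.39 with equal weights, Jup in E14.5 positive over negative cells, at 1.35 in title numbers 1 to 10, and Jup in P5 positive over negative cells, at 0.29 without L2N7. Ratios within 2-fold also turned. In P5 over E14.5 positive cells Jup reached -0.57 and Tjp1 -1.70 by the median cell, and each had the other sign in 4 of 8 settings, and Vcl in P5 positive over negative cells reached 0.37 by the median cell and turned in 3 of 7. The endothelial junction median in P5 over E14.5 positive cells was -5.36 by the median cell, -1.99 without cells led by other markers, and -1.99 (without L2P12) to 10.98 with each cell left out in turn. DESeq2 size factors shifted every log2 ratio of P5 over E14.5 positive cells by 0.38, of P5 over E14.5 negative cells by 0.24 and of the E14.5 comparison by -0.12, and TMM factors shifted the P5 comparison by 0.14 and P5 over E14.5 positive cells by 0.16. No paired analysis was possible because the labels pair no cells across groups, and the groups were not tested.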

Other observations

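Relatives of the members that are known mainly from skin and other epithelia were close to absent. Of 16 listed, 8 were in the table, among them the plakophilins Pkp1 and Pkp3, the desmogleins Dsg1a and Dsg3, P-cadherin (Cdh3), Tjp3 and the plakins Ppl and Evpl, and with all cells 0 reached 10 CPM in any group. Dsg1a came nearest, at 9.56 CPM in P5 positive cells and 0 counts in the other 3 groups. All of its 881 counts came from L2P3, where it stood at 57.8 CPM beside 40.1 CPM of Dsg2. Without L2P12 the group level of Dsg1a was 12.7 CPM, so that 1 of the 8 reached 10 CPM.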
